A study of Mus musculus with 3 samples.

Results

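The 8 genes for the subunits of the striated muscle troponin complex (Tnni1, Tnni2 and Tnni3 for troponin I, Tnnt1, Tnnt2 and Tnnt3 for troponin T, and Tnnc1 and Tnnc2 for troponin C) were followed in mouse heart ventricle. They were chosen by gene symbol, and each symbol led to 1 locus, so the genes made up 8 of 20117 mRNA loci and of 48626 loci in all. The ventricles came from C57BL/6 mice at stages E10.5 and E13.5 (E counts days of embryonic life) and from adults aged 8 weeks, and total RNA was made into 1 stranded, paired-end library per stage. The labels name no genetic change and no treatment at any stage, and do not say how many hearts went into a library. The study was made to find long non-coding RNAs of the developing heart, and the troponin genes were measured along with all other loci. Levels are given in FPKM, a count of sequenced fragments divided by exon length and by library size, which is a level per length and allows genes to be set side by side within a library. With 1 library per stage there are no replicates, so differences between stages come without a replicate check and without p-values.

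Troponin sits on the thin filament of striated muscle and switches contraction on and off. Troponin C binds calcium, troponin I holds actin and myosin apart until calcium binds, and troponin T ties the complex to tropomyosin. Troponin I and troponin T each have a slow skeletal (Tnni1, Tnnt1), a fast skeletal (Tnni2, Tnnt3) and a cardiac (Tnni3, Tnnt2) gene, whereas Tnnc1 serves slow skeletal and cardiac muscle and Tnnc2 fast skeletal muscle. The developing heart is known for using slow skeletal troponin I before the cardiac gene takes its place, and for splicing cardiac troponin T differently before and after birth.

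The troponin I and troponin T genes lie in neighbouring pairs, and the sequence around the starts of the 2 pairs with a cardiac gene is shown. The other pair, Tnni2 and Tnnt3, had no entry among the RefSeq sequences used here. Each sequence runs from 250 bases before to 50 bases after a RefSeq transcript start on GRCm38.p6, read 5′ to 3′ on the strand of the gene, with motif matches in capitals. Tnni1 (chr1:135799171-135799470, plus strand) and Tnnt2 (chr1:135836084-135836383, plus strand) form the pair on chromosome 1, and Tnni3 (chr7:4522479-4522778, minus strand) and Tnnt1 (chr7:4515926-4516225, minus strand) form a pair on chromosome 7.
Tnni1: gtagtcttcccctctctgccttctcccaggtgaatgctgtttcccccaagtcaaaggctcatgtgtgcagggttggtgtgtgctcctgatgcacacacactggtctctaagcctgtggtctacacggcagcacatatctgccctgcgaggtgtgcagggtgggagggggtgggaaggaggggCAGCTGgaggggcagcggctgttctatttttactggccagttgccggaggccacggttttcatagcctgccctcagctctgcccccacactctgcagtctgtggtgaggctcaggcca
Tnnt2: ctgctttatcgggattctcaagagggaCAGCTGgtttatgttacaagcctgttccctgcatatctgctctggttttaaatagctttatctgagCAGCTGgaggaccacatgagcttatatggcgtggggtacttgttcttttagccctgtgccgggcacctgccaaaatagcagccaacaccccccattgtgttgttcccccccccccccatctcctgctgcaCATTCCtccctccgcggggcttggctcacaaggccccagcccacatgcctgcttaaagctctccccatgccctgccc
Tnni3: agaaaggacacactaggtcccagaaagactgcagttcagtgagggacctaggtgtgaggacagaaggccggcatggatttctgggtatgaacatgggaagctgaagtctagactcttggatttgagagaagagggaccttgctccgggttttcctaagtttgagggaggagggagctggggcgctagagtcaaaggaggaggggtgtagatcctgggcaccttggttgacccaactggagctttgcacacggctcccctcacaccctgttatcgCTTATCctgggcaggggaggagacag
Tnnt1: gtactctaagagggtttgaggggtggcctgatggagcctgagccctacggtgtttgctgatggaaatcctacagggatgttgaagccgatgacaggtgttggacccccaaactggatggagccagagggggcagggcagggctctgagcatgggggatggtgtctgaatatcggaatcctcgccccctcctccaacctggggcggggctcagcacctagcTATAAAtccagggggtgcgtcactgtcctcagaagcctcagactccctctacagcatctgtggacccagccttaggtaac

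Positions are counted from the transcript start, negative before it. The capitals mark an E box at -68 to -63 of Tnni1, E boxes at -223 to -218 and at -157 to -152 of Tnnt2, and an MCAT element at -27 to -22 of Tnnt2. In Tnni3 they mark a GATA element on the opposite strand at 24 to 29, and in Tnnt1 a TATA box at -30 to -25. Both strands were searched for CAGCTG as the E box, CATTCC as the MCAT element, GATAAG as the element named after it, TATAAA as the TATA box and TNAAGTG as the NKX2-5 element, and also for the MEF2 site and the CArG box. No match overlapped another. Of 32851 RefSeq promoter windows of the same length, 16.3% held the E box, 14.7% the MCAT element, 7.44% the GATA element, 13.6% the TATA box, 11.5% the NKX2-5 element, 3.19% the MEF2 site and 1.63% the CArG box. The RefSeq table held 8 windows for 6 of the 8 genes, with no entry for Tnni2 and Tnnt3. Of these 8 windows, 3 held the E box (those of Tnnt2 and of both Tnni1 starts, which share the same bases), 2 the MCAT element (Tnnt2 and Tnnc1), 1 the GATA element and 1 the TATA box. A match describes letters in the window and is not a measured binding site.

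The leading troponin I gene of the embryonic libraries was not that of the adult library. Tnni1, the slow skeletal gene, lies at chr1:135799369-135810989 and was listed at 2425 FPKM at E10.5, 2289 FPKM at E13.5 and 0.737 FPKM in the adult. Both embryonic libraries were high and close to each other, and the adult library was low. The E10.5 level was 3291 times and the E13.5 level 3106 times the adult level. Tnni1 thus passed from rank 6 of the 20117 mRNA loci at E10.5 and rank 10 at E13.5 to rank 11526 in the adult. The adult value rests on about 11 fragments by an estimate from the smallest steps of the FPKM values (95% Poisson interval 5.49 to 19.7, counting error only). That estimate takes the longest RefSeq-matched transcript (1086 bases) as the length, so the fragment number and the size of this ratio are known only roughly. On the scale of log2(FPKM + 1), on which all differences are given here, the adult minus E10.5 difference was -10.45, and 0.00796% of 12569 background loci had a lower one. Background loci are the mRNA loci that reached 1 FPKM in any library.

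Tnni3, the cardiac troponin I gene, showed the opposite order, with 533 FPKM at E10.5, 1137 FPKM at E13.5 and 4059 FPKM in the adult. Each stage was above the one before it, by 2.13 times from E10.5 to E13.5 and by 3.57 times from E13.5 to the adult. The differences were 1.09 and 1.84, which add up to 2.93 between E10.5 and the adult, and the locus moved from rank 53 to rank 32 and then to rank 5. This locus (chr7:4516437-4532442, minus strand) is the only troponin locus that joins more than 1 gene: it also holds 6030429G01Rik, now called Dnaaf3, a gene for assembly of ciliary dynein. Of its 5 transcripts, 2 belong to Tnni3 and span chr7:4516437-4522549, while 2 assembled transcripts assigned to 6030429G01Rik run across both genes with 19 and 20 exons. The level given for Tnni3 is therefore that of the joined locus, and the part of each gene in it was not tested.

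Tnni2, the fast skeletal gene (chr7:142442468-142444405), was listed at 17.5 FPKM at E10.5, 51 FPKM at E13.5 and 1.52 FPKM in the adult. It was highest at E13.5, at 2.91 times the E10.5 level and 33.5 times the adult level. The adult value rests on about 14 fragments (95% Poisson interval 7.65 to 23.5), against about 161 at E10.5 and 907 at E13.5.

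Within the summed FPKM of the 3 troponin I genes, Tnni1 held 81.5%, 65.8% and 0.0181% in order of stage. The share of Tnni3 was 17.9%, 32.7% and 99.9%. Tnni2 held 0.588%, 1.47% and 0.0374%. A share within a library is not moved by how the libraries were scaled. The ratio of Tnni1 to Tnni3 was 4.55 at E10.5 and 2.01 at E13.5, whereas in the adult Tnni3 stood 5509 times above Tnni1. The troponin I sum itself went from 2975 to 3477 and 4062 FPKM, a far smaller span than that of Tnni1 or Tnni3 alone.

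**Figure D1:**
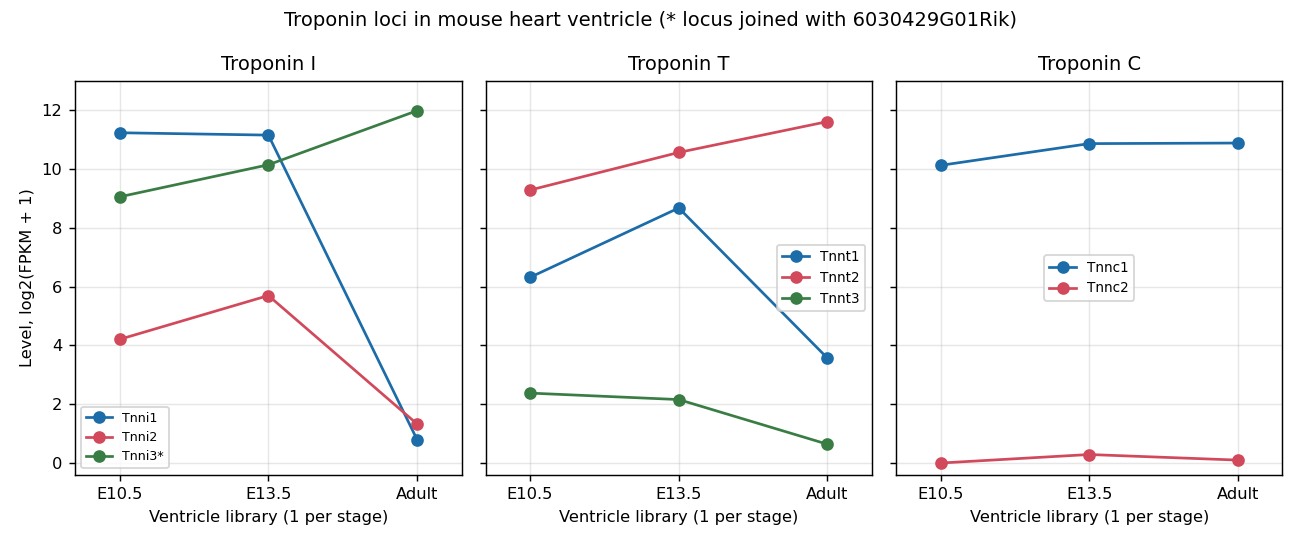
Level of each troponin locus as log2(FPKM + 1) in the E10.5, E13.5 and adult ventricle libraries, 1 point per library and 1 panel per subunit, with lines joining the points of a locus. Tnni1 is near 11 in both embryonic libraries and at 0.80 in the adult, Tnni3 and Tnnt2 are higher at each later stage, and Tnni2 and Tnnt1 are highest at E13.5.

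Troponin T kept the cardiac gene in first place at every stage. Tnnt2 (chr1:135836386-135852261) was listed at 626 FPKM at E10.5, 1522 FPKM at E13.5 and 3148 FPKM in the adult. Each stage was above the one before it, by 2.43 and then 2.07 times, and the adult level was 5.03 times that at E10.5. The differences were 1.28, 1.05 and, between E10.5 and the adult, 2.33.

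Tnnt1, the slow skeletal gene (chr7:4504663-4515975, minus strand), was listed at 78.8 FPKM at E10.5, 409 FPKM at E13.5 and 10.9 FPKM in the adult. It peaked at E13.5, where it was 5.19 times the E10.5 level and 37.6 times the adult level, and it went from rank 696 to rank 103 and then to rank 4591. Its E13.5 minus E10.5 difference of 2.36 was exceeded by 0.565% of the background loci. The adult level was not at the limit of detection, since it rests on about 140 fragments (95% Poisson interval 118 to 165).

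Tnnt3, the fast skeletal gene (chr7:142498836-142516009), was low throughout, at 4.21 FPKM at E10.5, 3.47 FPKM at E13.5 and 0.563 FPKM in the adult. The embryonic libraries lay close together and above the adult one, with about 62.7, 99.9 and 8.39 fragments behind the values. The antisense gene Gm14492 overlaps Tnnt3 and was listed at 0.204, 0.0668 and 2.39 FPKM, so that in the adult it was above Tnnt3. It also overlaps the neighbouring gene Lsp1, and the study lists it as antisense to Lsp1. The library kit keeps the strand, but whether the FPKM values used it is not given in the sources used here.

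Of the summed troponin T FPKM, Tnnt2 held 88.3% in the E10.5 library, 78.7% in the E13.5 library and 99.6% in the adult library. Tnnt1 held 11.1%, 21.1% and 0.344%, and Tnnt3 0.593%, 0.179% and 0.0178%. In both families the slow skeletal gene was thus near the bottom of its range in the adult, but at E10.5 it led troponin I and held a minor share of troponin T. The ratio of Tnnt2 to Tnnt1 was 7.95, 3.72 and 289 at the 3 stages.

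Nearly all troponin C FPKM lay on Tnnc1 in each library. Tnnc1 (chr14:31208312-31211711) was listed at 1121 FPKM at E10.5, 1870 FPKM at E13.5 and 1892 FPKM in the adult. The E10.5 library was the lowest and the later libraries were alike, with a ratio of 1.67 from E10.5 to E13.5 and of 1.01 from E13.5 to the adult. That near-equality holds for FPKM as deposited, with an adult minus E13.5 difference of 0.02. The difference was 0.59 with median-of-ratios scaling and 0.35 with scaling to the sum of mRNA loci other than globin and mitochondrial ones. Tnnc2, the fast skeletal gene (chr2:164777162-164779734, minus strand), was listed at 0 for E10.5, 0.222 FPKM for E13.5 and 0.0684 FPKM for the adult. A count of 3 fragments, the limit that a count of 0 allows, would give 0.314 FPKM in the E10.5 and adult libraries and 0.163 FPKM in the E13.5 library. The E10.5 and adult values lie under that limit and could not be told from 0 at this depth, and the E13.5 value rests on about 4.1 fragments, so no fold change is given.

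**Figure D2:**
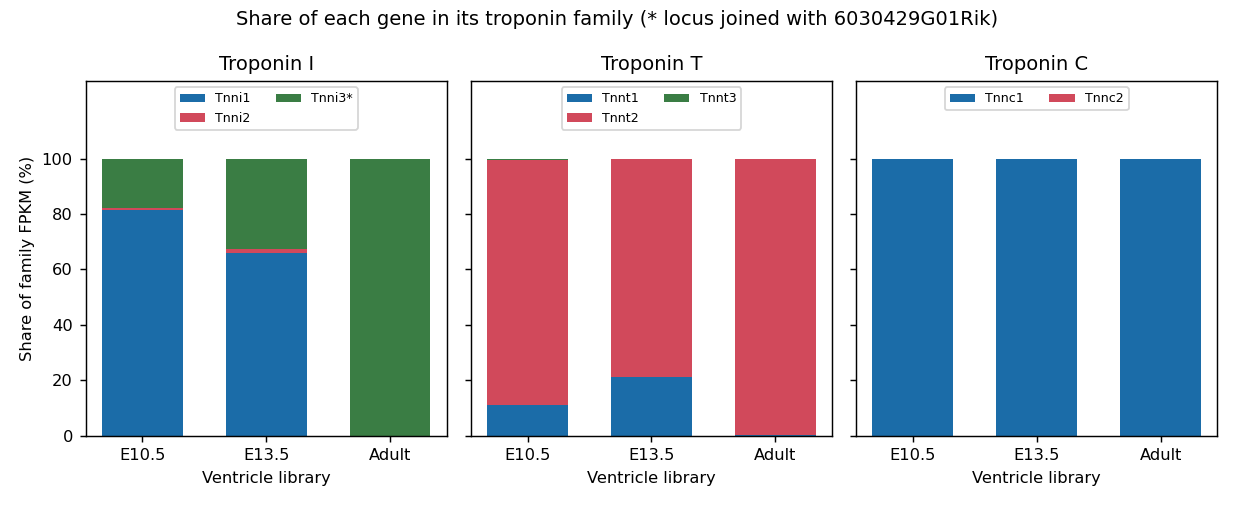
Share of each gene in the summed FPKM of its family (percent, stacked bars from 0) in the E10.5, E13.5 and adult ventricle libraries. Troponin I passes from 81.5% Tnni1 at E10.5 to 99.9% Tnni3 in the adult, troponin T is mostly Tnnt2 in each library, and Tnnc1 fills the troponin C bars, with Tnnc2 too low to be seen.

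The balance between the subunits was also compared. Troponin I to troponin C stood at 2.65, 1.86 and 2.15 in order of stage, and troponin T to troponin C at 0.632, 1.03 and 1.67. Troponin I to troponin T came down from 4.2 to 1.8 and 1.29. The order of the family sums at E10.5 was thus troponin I, troponin C and troponin T, and troponin T stood slightly above troponin C by E13.5 and clearly above it in the adult. All 8 genes together made up 1.41%, 1.68% and 2.76% of the mRNA FPKM in order of stage.

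The 3 comparisons of stages were then set against all background loci, with a difference of 2 or more counted as past the threshold. Of the 8 troponin loci, 7 passed the filter of 1 FPKM, and Tnnc2 did not. From E10.5 to E13.5, 1 of 8 was higher (Tnnt1) and 0 were lower, beside 0.851% of background loci higher and 0.247% lower. In the adult against E13.5, 0 of 8 were higher and 3 were lower (Tnni1, Tnni2 and Tnnt1, with differences of -10.36, -4.37 and -5.11), beside 4.41% higher and 9.88% lower. In the adult against E10.5, 2 of 8 were higher (Tnni3 and Tnnt2) and 3 were lower (Tnni1, Tnni2 and Tnnt1, the last 2 by -2.88 and -2.75), beside 5.59% higher and 8.1% lower. The median difference over the 8 loci was 0.92, -0.85 and -0.82 in these comparisons, and that over the background loci 0.17, -0.50 and -0.40. Without Tnnc2, whose values lie at the limit of detection, the median over the other 7 was 1.09, -1.52 and -1.74. Why the background medians differed from 0 was not tested, and they depend on the settings. They were 0.02, -0.03 and 0.00 with no filter. Scaling to the sum of mRNA loci other than globin and mitochondrial ones gave -0.08, -0.22 and -0.39. Relative to the median of -0.40 given above, the adult minus E10.5 difference was 3.33 for Tnni3, 2.73 for Tnnt2 and -10.05 for Tnni1.

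Another scaling changed the split of the background. With median-of-ratios scaling, the background shares in the same order of comparisons were 0.708% higher against 0.382% lower, 7.13% against 6.12%, and 7.87% against 6.09%. With scaling to the sum of mRNA loci other than globin and mitochondrial ones, the higher and lower shares were 0.629% and 0.636%, 5.62% and 7.21%, and 5.82% and 8.2%. Under both scalings Tnni3 also passed the threshold from E13.5 to the adult, with differences of 2.40 and 2.17 in place of 1.84. No troponin locus changed the sign of a difference under either scaling.

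**Figure D3:**
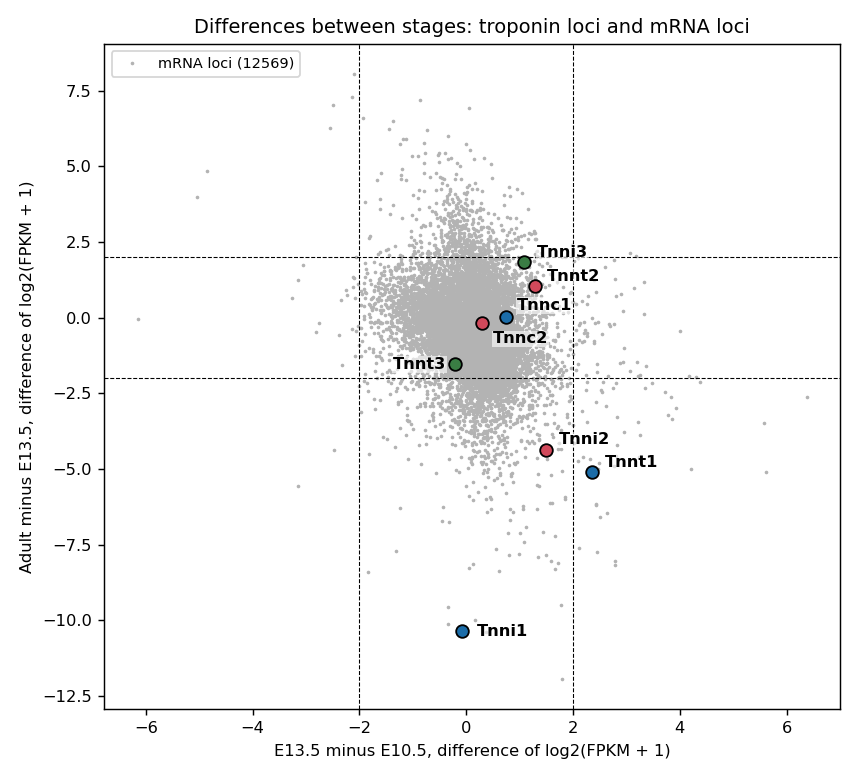
Difference in log2(FPKM + 1) from E10.5 to E13.5 (x axis) and from E13.5 to the adult (y axis) for 12569 background mRNA loci (grey points) and the 8 troponin loci (named points), with dashed lines at differences of 2 and -2. Tnni1 lies at -0.08 and -10.36, Tnnt1 and Tnni2 lie to the lower right, and Tnni3 and Tnnt2 lie to the upper right of the origin.

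The neighbours of the troponin loci were compared next. Tnni1 and Tnnt2 lie 25396 bp apart on the same strand with Lad1 between them, a gene for an anchoring filament protein of epithelia. Lad1 was listed at 0.957, 1.22 and 3.42 FPKM, between a partner that was at 0.737 FPKM and one that was at 3148 FPKM in the adult. Tnni2 and Tnnt3 lie 54430 bp apart with Lsp1, a leukocyte actin-binding protein gene, between them at 19.3, 46.9 and 19.8 FPKM. The Tnni3 and Tnnt1 loci are 461 bp apart with no mRNA locus between them, and they went opposite ways from E13.5 to the adult, with differences of 1.84 and -5.11. That distance counts assembled transcripts that reach chr7:4516437. The RefSeq-matched Tnni3 transcript reaches only chr7:4518308, while Tnnt1 lies up to chr7:4515975. Of the other nearest mRNA loci, Syt8 beside Tnni2 was listed at 0.112, 0.0784 and 0 FPKM, and Ppp1r12c beside Tnnt1 at 8.07, 15.3 and 10.8 FPKM. Syt5, beside the joined Tnni3 locus on the side of 6030429G01Rik, was listed at 0, 0.402 and 0.0499 FPKM. Nisch beside Tnnc1 was listed at 97.6, 66.2 and 31.8 FPKM, and Ube2c, a ubiquitin-conjugating enzyme of mitosis, beside Tnnc2 at 91.3, 127 and 0.591 FPKM.

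**Figure D4:**
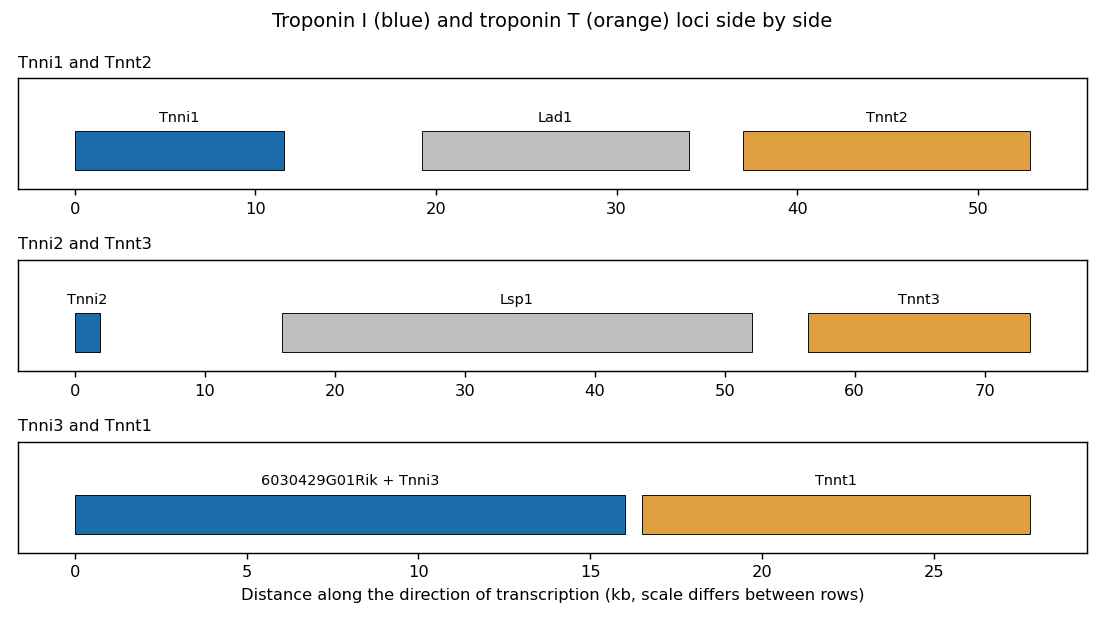
The 3 neighbouring pairs of troponin I loci (blue) and troponin T loci (orange) with the mRNA loci between them (grey), drawn by distance in kb along the direction of transcription, each row on its own scale. With assembled transcripts counted, the Tnni3 and Tnnt1 loci are 0.461 kb apart, against 25.4 kb for Tnni1 and Tnnt2 and 54.4 kb for Tnni2 and Tnnt3.

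The pattern over the 3 libraries was compared by the Euclidean distance of the log2(FPKM + 1) values, each centred on its own mean, over 7604 mRNA loci that reached 10 FPKM in any library. With only 3 libraries many loci can share a pattern, and the distance is a description. Closest to Tnni1 were Myl7 (distance 0.20) and Myl4 (0.46), the atrial regulatory and essential myosin light chains, and the joined Myh6 and Myh7 locus of the cardiac myosin heavy chains (0.36), which was listed at 0 in the adult. The adult heart is known to use these heavy chains heavily, and whether that 0 is a failed estimate was not tested. The distance of 0.36 rests in part on this value. Closest to Tnni3 were Tcf15 (0.08) and Tcp11l2 (0.08) and the inward rectifier potassium channel gene Kcnj2 (0.13). Closest to Tnnt2 were Adprhl1, the mitochondrial enoyl-CoA isomerase gene Eci1 and 1810020D17Rik, all at 0.07. Closest to Tnni2 were Gm1673 (0.19), the kinetochore gene Cenpk (0.19) and the mesenchymal transcription factor gene Twist1 (0.22). Closest to Tnnt1 were Hist3h2bb-ps (0.14), the microfibril gene Mfap2 (0.27) and the secreted matrix protein gene Cthrc1 (0.33). Closest to Tnnc1 were the ATP synthase subunit gene Atp5o (0.01), Spsb3 (0.04) and Zfp110 (0.04). Among the troponin genes themselves, Tnni3 and Tnnt2 lay 0.58 apart and Tnni2 and Tnnt1 0.66 apart, and the pair farthest apart was Tnni1 and Tnni3 at 10.47.

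The label of the tissue was checked against markers. The ventricular genes Myl2, Myl3, Irx4 and Hey2 were present in all 3 libraries, with a summed level of 8944, 14550 and 13796 FPKM. Myl2, on a locus joined with Ccdc63, carried most of that sum (7790, 12217 and 11568 FPKM), while Hey2 (43.1, 73.2 and 5.38 FPKM) and Irx4 (24, 21.5 and 7.6 FPKM) were lowest in the adult. The atrial list (Myl7, Sln, Nppa and Myl4) summed to 6382 and 6766 FPKM in the embryonic libraries and 40.9 FPKM in the adult, and 4 of 4 genes were past the threshold downwards from E13.5 to the adult, beside 9.88% of background loci, the same comparison in which Tnni1 was lower. These atrial genes are known to be used in the embryonic ventricle as well, and their part in the Tnni1 difference was not tested. For the fast skeletal genes, the skeletal muscle regulators Myod1 (0, 0.0755 and 0 FPKM), Myf5 (0, 0.0395 and 0 FPKM) and Myog (0.0381, 0.454 and 0.0495 FPKM) were at or near 0 in every library. Their highest values, and those of the skeletal myosin genes Myh3 (0.253 FPKM) and Myh8 (0.0342 FPKM), were at E13.5, as for Tnni2 and Tnnt1, and their part in those levels was not tested. For Myod1, Myf5 and Myh8 the values are so low that their order between libraries is uncertain. The E13.5 library was also the deepest by the estimate, with 26.7 fragments per kb at 1 FPKM against 13.8 at E10.5 and in the adult. Mylpf (29.9, 8.69 and 1.46 FPKM) and Actn3 (2.16, 1.3 and 0.0398 FPKM) were highest at E10.5 instead. The skeletal marker list of 8 genes summed to 62, 69.6 and 1143 FPKM, of which Ckm, a creatine kinase gene that the heart also uses, made up 29.9, 58.8 and 1142 FPKM. The sum of the erythroid list of 5 genes was highest at E13.5, as were Tnni2 and Tnnt1, with 7127, 17872 and 152 FPKM, and its part in their levels was not tested. That sum was carried by the embryonic globin gene Hbb-y (4356, 15112 and 2.87 FPKM), whereas Hbb-bh1 and Hba-x, also embryonic globins, were highest at E10.5. The adult beta-globin locus (Beta-s,Hbb-b1,Hbb-b2), not in the list and singled out after its values were seen, differed by 0.11 in the adult against E13.5, so the list's adult sum does not describe red cells as a whole. The cardiomyocyte list summed to 1126, 1460 and 5580 FPKM, and Pln (505, 745 and 4551 FPKM) carried the adult sum. Actn2 and Ryr2 were also highest in the adult, whereas Mybpc3 (245, 383 and 286 FPKM) and Nkx2-5 (46.8, 61.1 and 9.37 FPKM) were highest at E13.5. The smooth muscle list summed to 1311, 1226 and 187 FPKM, of which Acta2 (1090, 836 and 124 FPKM) made up most. Tagln and Cnn1 were also lowest in the adult, whereas Myh11 (0.112, 0.893 and 18.1 FPKM) was highest there. The fibroblast list summed to 121, 254 and 413 FPKM, where Dcn (49.5, 75.9 and 351 FPKM) carried the adult sum and the other 4 genes had their highest level at E13.5. Endothelial markers summed to 176, 110 and 201 FPKM, macrophage markers to 5.09, 29.9 and 98.2 FPKM, and liver markers to 8.08, 18.2 and 0.16 FPKM. In whole tissue, fewer cells of a type and less RNA per cell cannot be told apart.

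The partners of troponin on the thin filament were taken as a list of 12 genes for actins, tropomyosins and their capping and length-setting proteins. From E10.5 to the adult, 3 of 12 were past the threshold upwards and 0 downwards, with a median difference of -0.36, beside 5.59% and 8.1% of background loci and a background median of -0.40. These were Lmod2, a leiomodin that lengthens thin filaments (14.6, 21.8 and 115 FPKM), Tmod4, a tropomodulin that caps them (0.599, 0.151 and 9.88 FPKM), and Lmod3 (3.68, 9.99 and 20.2 FPKM). Tpm1, the main cardiac tropomyosin gene and the binding partner of troponin T, was listed at 1828, 3343 and 6601 FPKM, a difference of 1.85 that was below the threshold. Tpm1 was thus higher at each later stage, as were Tnni3 and Tnnt2.

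The thick filament list of 10 genes fell on 9 loci, of which 0 were past the threshold upwards and 5 downwards from E10.5 to the adult, beside 5.59% of background loci upwards and 8.1% downwards. The median was -5.03 over the 9 loci, but it turned to 0.22 over the 7 loci that remain without Ttn and the joined Myh6 and Myh7 locus, both listed at 0 in the adult, of which 3 were past the threshold downwards. The members with the largest differences were Myl7, Myl4, the joined Myh6 and Myh7 locus and Ttn, the gene of the giant spring protein titin. Myl7 was listed at 2453, 1935 and 0.719 FPKM and Myl4 at 2164, 2440 and 1.42 FPKM. Ttn was listed at 428, 46.8 and 0 FPKM and the joined heavy chain locus at 1029, 1329 and 0 FPKM, so 2 of the 5 rest on a listed 0. Whether either 0 is a failed estimate was not tested.

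Of 14 further fast skeletal muscle genes, 6 passed the filter of 1 FPKM, and 1 was past the threshold upwards and 2 downwards from E10.5 to the adult, beside 5.59% of background loci upwards and 8.1% downwards and a list median of -0.07. Casq1, the skeletal calsequestrin gene, was listed at 94.3, 75.3 and 1.99 FPKM, and Mylpf, the fast regulatory light chain gene, at 29.9, 8.69 and 1.46 FPKM. Mybpc2, the fast myosin-binding protein C gene, went the other way with 0.172, 0.699 and 8.42 FPKM. Actn3, the fast alpha-actinin gene, was listed at 2.16, 1.3 and 0.0398 FPKM, a difference of -1.60. None of these 4 genes was highest at E13.5, where Tnni2 was, but Myl1, a fast essential light chain gene singled out after its values were seen, was, with 27.8, 72.1 and 12.3 FPKM.

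Of 11 cardiac transcription factor genes, 0 were past the threshold upwards and 1 downwards from E10.5 to the adult, which is near the background shares of 5.59% and 8.1%, with a median of -1.09. That gene was Nkx2-5, a homeobox factor of the cardiac lineage, at 46.8, 61.1 and 9.37 FPKM. Gata4 was listed at 63.6, 43 and 19.5 FPKM, Hand2 at 29.9, 42.1 and 9.12 FPKM, and Tbx5 at 14.5, 7.8 and 4.23 FPKM. These 4 genes were lower in the adult than in both embryonic libraries. Mef2a (42.3, 39.9 and 67.3 FPKM) and Mef2d (9.4, 6.25 and 11.1 FPKM) of the same list, named in addition, were highest in the adult. Both were lowest at E13.5, unlike Tnni3 and Tnnt2.

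Of 10 kinase and phosphatase genes that act on troponin or bind it, 1 was past the threshold upwards and 0 downwards from E10.5 to the adult, where background shares were 5.59% and 8.1%, with a median of -0.30. That gene was Tnni3k, a cardiac kinase named for its interaction with troponin I, at 9.75, 26.3 and 49.2 FPKM. Prkd1, protein kinase D, was listed at 14.8, 6.54 and 3.83 FPKM, Ppp1ca, a catalytic subunit of protein phosphatase 1, at 279, 396 and 131 FPKM, and Pak1 at 3.68, 3.65 and 1.85 FPKM.

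The structure of the Tnnt2 transcripts was described in more detail, because the short exons near the start of this gene are the ones known to be spliced differently in the embryonic and adult heart. The Tnnt2 locus holds 15 transcripts, 10 matched to RefSeq and 5 assembled from the reads. The short coding exons, shown whole and in capitals, are these on the plus strand of GRCm38.p6, with the exon of 11 bases at chr1:135841901-135841911, that of 12 bases at chr1:135842015-135842026 and that of 30 bases, the embryonic exon, at chr1:135843785-135843814.
Tnnt2 11-base exon: GGAACAGGAAG
Tnnt2 12-base exon: AAGCTGTGGAAG
Tnnt2 30-base exon: AGGAAGACTGGAGTGAAGAAGAGGAGGACG

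In the deposited transcripts the 30-base exon appears in 6 of 15 (4 RefSeq-matched and 2 assembled), each time with an earlier start that makes it 35 or 37 bases long. The 11-base exon appears in 9 of 15 (6 and 3) and the 12-base exon in 5 of 15 (3 and 2), and none of these holds the 30-base exon too. The same RefSeq transcripts are drawn differently in RefSeq on GRCm38.p6, which holds 9 of the 10. There 9 of 9 hold the 11-base exon, 4 of 9 the 12-base exon and 4 of 9 the 30-base exon, and all 4 with the 30-base exon hold the 11-base exon as well. In the deposited exons of those 9 transcripts the 11-base exon is present in 5 and the 12-base exon in 2. The absence of a joint transcript is therefore a property of the deposited exon coordinates, in which the shortest exons are missing wherever the 30-base exon is used. Values per transcript were not analysed here, so the levels of Tnnt2 cover all of its transcripts together, and use of these exons by stage was not tested. Over the 8 genes, 83 of 88 introns of RefSeq-matched transcripts (94.3%) were found on GRCm38.p6, among them 17 of 20 of Tnnt2, 8 of 9 of Tnni1, 4 of 5 of Tnni2 and all of the other 5 genes. Whole transcripts matched less often: 13 of 24 had all introns the same as in RefSeq on GRCm38.p6, with 1 of 9 for Tnnt2, 0 of 2 for Tnni1 and 0 of 1 for Tnni2.

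**Figure D5:**
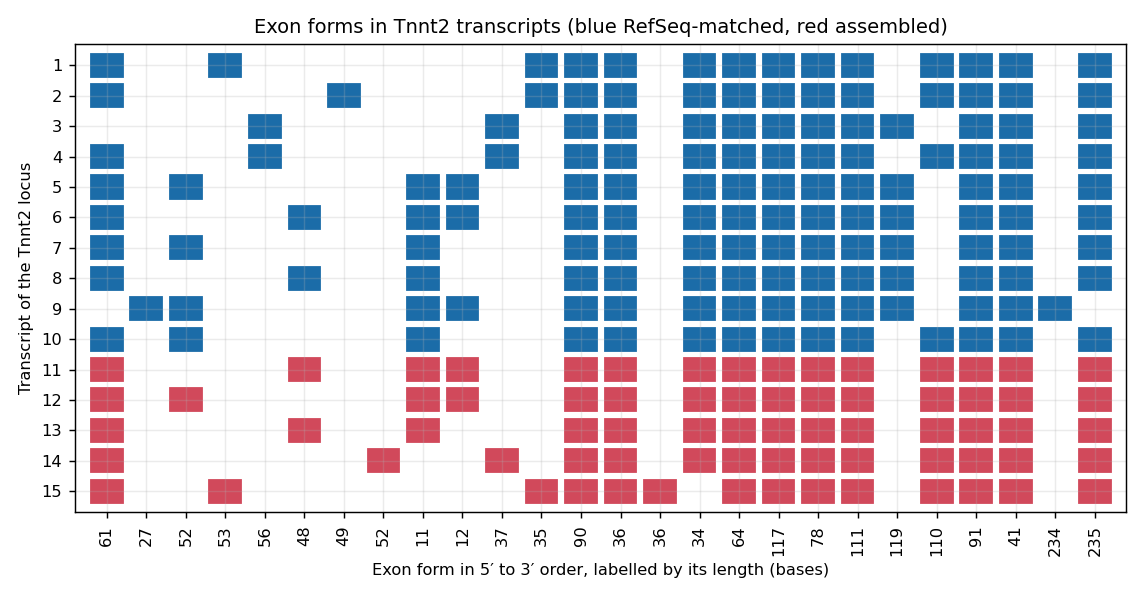
Exon forms (x axis, 5′ to 3′, labelled by length in bases) in the 15 deposited transcripts of the Tnnt2 locus (y axis), with blue for the 10 RefSeq-matched and red for the 5 assembled transcripts. The 35-base and 37-base forms of the 30-base exon appear in 6 transcripts, none of which has the 11-base or the 12-base form.

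Of 10 splicing regulator genes of muscle, 1 was past the threshold upwards and 0 downwards from E10.5 to the adult, against background shares of 5.59% and 8.1%, with a median of -0.05. That gene was Rbfox1, at 0.865, 1.25 and 16.1 FPKM. Mbnl1, a muscleblind factor, was listed at 28.7, 25.5 and 95.6 FPKM. The polypyrimidine tract binding protein genes Ptbp1 (72, 67.5 and 18 FPKM) and Ptbp2 (71.9, 73.9 and 24 FPKM) were higher in both embryonic libraries than in the adult.

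The steps between neighbouring stages differed for these lists of partner and regulator genes. From E10.5 to E13.5, 0 of their loci were past the threshold upwards and 1 downwards, Ttn, with a difference of -3.16. Ttn is also a locus with a listed 0 in the adult, and how reliable its values are was not tested. In the adult against E13.5, 2 thin filament genes (Lmod2 and Tmod4), 1 fast skeletal gene (Mybpc2) and 1 splicing regulator (Rbfox1) were past it upwards. Downwards it was passed by 5 thick filament loci (3 without Ttn and the joined Myh6 and Myh7 locus, whose adult value is a listed 0), 2 fast skeletal genes (Casq1 and Myl1) and 2 transcription factor genes (Nkx2-5 and Hand2), and no kinase or phosphatase gene passed it in either direction. The background shares for this comparison were 4.41% upwards and 9.88% downwards.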

How the data were processed

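Total RNA of mouse heart ventricle was sequenced with 1 library per stage. Per the submitters' processing notes, the authors used TopHat (named TopHat2 in the study's text) and Bowtie on mm10 for alignment and Cufflinks for assembly, and the exact releases are not given in the sources used here. The authors deposited 1 FPKM value per merged locus and library (unit FPKM, scaled to exon length and library size), and the deposited exon coordinates of the merged transcripts. Samples were grouped by the stage in their labels, and 0 value columns belonged to no sample. The FPKM columns sum to 601115 (E10.5), 808971 (E13.5) and 443471 (adult), and 11296, 11608 and 11160 mRNA loci reach 1 FPKM. Read counts were not used here. The depth was estimated from the most frequent low step of FPKM times length over single-exon loci (0.0725, 0.0375 and 0.0725 FPKM kb), taken as 1 fragment. The length used for each troponin gene was that of its longest RefSeq-matched transcript, though transcripts of a locus can differ in length (201 to 6136 bases for Tnni1). The steps are broad and the length is assumed, so fragment numbers are approximate.

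Differences are of log2(FPKM + 1), which understates changes of low loci, and 2 or more counts as past the threshold. No test was run, since no stage has a replicate. All 8 troponin loci are named, up to 4 genes of each list (those with the largest difference between the adult and E10.5), the nearest neighbours, and the 3 loci most alike in pattern. Some further genes outside this rule are named as well. The members and lists were chosen with earlier results of these data known. Alternatives were a pseudocount of 0.1, other scalings over 14534 and 20110 loci, a threshold of 1, no filter, and leaving out joined loci. Sequences are from RefSeq on GRCm38.p6, the assembly of mm10 with patches. Python 3.11.15, pandas 2.3.3 and numpy 2.4.6 were used, and the scripts were tested on simulated data.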

Additional observations from a re-analysis of the deposited data

How the results depend on the processing

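Of 132 values set against an alternative, 96 stayed within 1.5 times of the value given in the report, and 36 moved further. For background shares the limit was the 95% Wilson interval instead. The scale factors by stage were 1.07, 1.19 and 0.804 for median of ratios, and 0.934, 1.16 and 0.923 for the mRNA sum. Within each scaling they differ by less than 1.5 times. The troponin differences were thus bound to stay within the limit under both scalings, which says nothing about their stability. With a threshold of 1, 4 troponin loci were higher from E10.5 to E13.5 and 2 from E13.5 to the adult, beside 5.89% and 13% of background loci. Under median-of-ratios scaling, and with scaling to the mRNA sum without globin and mitochondrial loci, 1 was higher from E13.5 to the adult. Without joined loci, which removes Tnni3, 1 was higher from E10.5 to the adult, and the adult troponin I shares became 32.6% for Tnni1 and 67.4% for Tnni2. With a pseudocount of 0.1, the differences from E13.5 to the adult were -11.42 (Tnni1), -4.98 (Tnni2) and -2.43 (Tnnt3), and those from E10.5 to the adult -11.50 (Tnni1) and -2.70 (Tnnt3), so that Tnnt3 passed the threshold in both comparisons with the adult. For Tnnc2, which rests on 0 to about 4.1 fragments, the same change gave 1.69, -0.94 and 0.75 in the 3 comparisons, numbers that the pseudocount sets and that are not read as changes. Leaving out loci listed at 0, chosen after seeing the data, moved the thick filament median from -5.03 to 0.22 in the adult against E10.5 and from -3.89 to -0.42 in the adult against E13.5. Background shares past the threshold, higher and lower in the order of the 3 comparisons, were 2.63%, 1.02%, 7.77%, 16.2% and 9.75% with the pseudocount of 0.1 (the last lower share was 1696 of 12569 loci), and 0.532%, 0.154%, 2.75%, 6.17%, 3.49% and 5.06% with no filter.

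No paired analysis was possible because no stage was sequenced more than once. The lack of replicates, the approximate depth behind low values such as adult Tnni1, Tnni2 and Tnnt3, and the joining of Tnni3 with its neighbour limit what these values can show.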
